A study of Mus musculus with 6 samples.

Results

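The NF-κB subunits and the IκB family were examined in primary microglial cells (PM), the resident macrophages of the brain. The 10 genes were taken by symbol from the 24411 genes of the count tables. They comprise the classical IκB genes Nfkbia, Nfkbib and Nfkbie, the atypical IκB genes Nfkbiz, Nfkbid and Bcl3, the subunits Rela and Rel, and Nfkb1 and Nfkb2, which encode the precursors p105 and p100. All 10 passed the filter on low counts and were among the 10133 genes tested.

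Treatments were compared by RNA-seq at 4 h, each in 3 libraries. One was GSK-J4 alone at 10 μM, and the other was GSK-J4 at 10 μM together with LPS at 10 ng/ml. PM were shaken off mixed glial cultures made from pooled brains of 3-day-old ICR mice. Both groups received GSK-J4, an inhibitor of the H3K27 demethylase JMJD3, and LPS is a bacterial endotoxin that activates TLR4. Untreated PM, PM given LPS alone and the BV-2 cell line were not analysed here, so the values below compare LPS + GSK-J4 with GSK-J4 and do not measure the effect of GSK-J4 itself. The replicates are independent samples of each treatment per the study's methods, and which brains went into which library is not given in the sources used here.

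NF-κB is a dimer of Rel proteins that waits in the cytoplasm of resting cells, bound by an IκB. Ligands of TLR4 activate the IKK kinase complex, which marks IκBα for degradation, and the freed dimer then enters the nucleus and switches on inflammatory genes. Several genes of the IκB family and of the subunits are themselves among its targets, so that the inhibitor is made anew. The classical IκB proteins hold the dimers in the cytoplasm, whereas the atypical members bind them mainly in the nucleus and can activate or repress transcription there.

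The recognition letters of NF-κB near the start sites of the genes are shown first, since these genes are known for feedback through such sites. RefSeq start sites (GRCm38.p6) with sequence from 250 bases before to 50 bases after were matched to 8 of the 10 genes by symbol, and those of Nfkbiz and Nfkb1 were not analysed here. The kappaB consensus, searched on both strands, was found in the promoters of 6 of these 8 genes, compared with 9.55% of the 27025 genes with a promoter. Counted by promoter, it was found in 8 of the 12 windows of these genes, compared with 8.46% of all 32851 windows. Overlapping windows of Nfkb2 share a match, so these windows are not all separate. The comparison was not matched for the share of G and C. Each match is given below as 30 bases on the strand of its gene, read 5′ to 3′, with the match in capitals. Matches on the opposite strand that overlapped were merged.
Nfkbia (chr12:55492657-55492686, minus strand): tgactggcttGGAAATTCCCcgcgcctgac
Nfkbie (chr17:45555584-45555613, plus strand): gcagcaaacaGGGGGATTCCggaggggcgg
Nfkbid (chr7:30422170-30422199, plus strand): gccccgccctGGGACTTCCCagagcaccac
Nfkbid (chr7:30422215-30422244, plus strand): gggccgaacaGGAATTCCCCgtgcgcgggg
Bcl3 (chr7:19822734-19822763, minus strand): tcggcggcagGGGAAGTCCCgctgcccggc
Rel (chr11:23771041-23771070, minus strand): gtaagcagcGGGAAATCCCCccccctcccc
Nfkb2 (chr19:46304689-46304718, plus strand): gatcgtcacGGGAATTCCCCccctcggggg
Nfkb2 (chr19:46304716-46304745, plus strand): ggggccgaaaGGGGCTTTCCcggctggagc
Nfkb2 (chr19:46305449-46305478, plus strand): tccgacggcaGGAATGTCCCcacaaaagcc
Nfkb2 (chr19:46305695-46305724, plus strand): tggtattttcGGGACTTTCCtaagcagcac

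Nfkb2 held 4 separate matches over its RefSeq start sites, Nfkbid held 2, and each of the other 4 genes held 1. The match of Nfkbia lay closest to its start site among the IκB genes with a match before it, at 29 to 20 bases before the start. The match of Bcl3 lay within the transcribed sequence, and the last listed match of Nfkb2 lay 10 to 19 bases after 1 of its start sites. The matches of Nfkbid and Nfkb2 lay inside the annotated span of these genes, which have several start sites. Nfkbib and Rela held 0 matches in these windows. A match describes letters, and binding was not measured in these libraries. For comparison, the sequence directly before the first annotated exon is shown for Nfkbia, which holds the consensus, and for Rela, which does not hold it in its window.
Nfkbia (chr12:55492648-55492897, minus strand): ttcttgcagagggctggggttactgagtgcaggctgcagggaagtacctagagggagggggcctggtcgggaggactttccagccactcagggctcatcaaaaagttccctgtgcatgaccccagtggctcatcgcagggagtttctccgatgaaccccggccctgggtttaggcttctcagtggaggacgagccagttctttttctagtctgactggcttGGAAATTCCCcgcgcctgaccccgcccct
Rela (chr19:5637291-5637482, plus strand): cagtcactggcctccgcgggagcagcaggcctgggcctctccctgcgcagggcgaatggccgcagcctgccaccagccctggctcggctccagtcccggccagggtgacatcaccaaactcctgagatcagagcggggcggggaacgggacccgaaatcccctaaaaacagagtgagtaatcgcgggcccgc

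Most of the family was higher with LPS in the presence of GSK-J4. Of the 10 genes, 8 rose and 0 fell (adjusted p ≤ 0.01) in edgeR's quasi-likelihood test, compared with 8.42% and 5.46% of all genes tested. With the added condition of a log2 fold change of at least 1.5, 6 genes were called up-regulated, namely Nfkbia, Nfkbib, Nfkbie, Nfkbiz, Nfkbid and Nfkb1, compared with 2.95% of all genes tested. A call in the other direction was made for 0 of the 10 genes and for 0.809% of all genes tested. The 6 IκB genes gave 5 of the 6 calls and the 4 subunit genes gave 1. Without replicate 3 of both groups, which stood apart as given below, 8 genes rose and 4 were called, with Nfkbib at 1.28 and Nfkb1 at 1.45. Of the 10375 genes tested in that setting, 993 rose and 297 were called up-regulated. With all 6 libraries, the median log2 fold change was 1.54 over the 10 genes, 2.59 over the IκB genes and 1.16 over the subunits, compared with -0.00064 over all genes tested. The scaling itself brings this last median near 0. The 3 GSK-J4 and the 3 LPS + GSK-J4 libraries did not overlap for 8 genes, with the LPS libraries higher, and the same held for 19.8% of all genes tested. For a single gene, an exact permutation test of 3 libraries against 3 cannot give a p below 0.1.

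**Figure D1:**
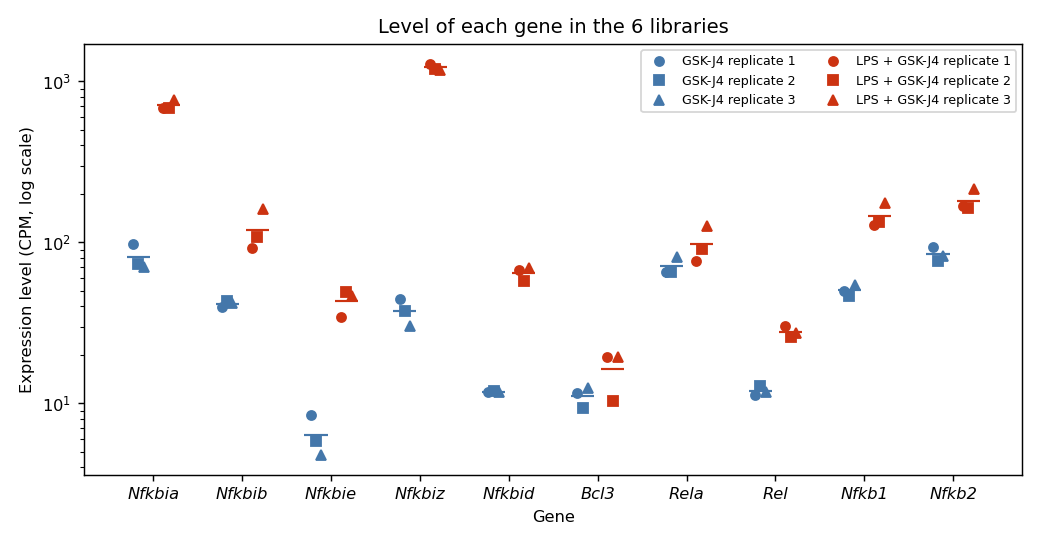
Expression level of the 10 genes in each library, in CPM (scaled counts relative to the library's total) on a log axis, with GSK-J4 in blue and LPS + GSK-J4 in red, symbols for replicates 1 to 3 and short lines for group means. The groups overlap only for Bcl3 and Rela, and Nfkbiz spans the widest distance, from a mean of 37.3 to 1219 CPM.

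Depth and other properties of the libraries bear on all values. Gene counts summed to 2597505 to 3472716 per library, and 3 counts corresponded to 0.673 to 1.24 CPM after scaling. The ribosomal precursor Rn45s took 22.2 to 32.4% of these counts in GSK-J4 and 45.8 to 48.1% in LPS + GSK-J4, and the family genes are given after TMM scaling. The TMM factors were 1.05 to 1.31 in GSK-J4 and 0.821 to 0.832 in LPS + GSK-J4, which raises the scaled levels with LPS relative to the raw counts. Replicate 3 of both groups stood apart, with a chi-square per degree of freedom of at least 5.81 against the other replicates of its group, whereas replicates 1 and 2 differed by 2.12 and 2.32. LPS + GSK-J4 replicate 3 was the highest of the LPS libraries for 6 of the 10 genes. The 8 microglial markers, which included Cx3cr1 and Csf1r, summed to 2631 to 2725 CPM in GSK-J4 and to 2058 to 2120 CPM in LPS + GSK-J4, and 2 of them fell. Markers of astrocytes summed to 31.9 to 34.4 and 76.1 to 102 CPM, those of the oligodendrocyte lineage to 179 to 205 and 347 to 393 CPM, and those of fibroblasts and mesenchyme to 71.8 to 262 and 132 to 393 CPM. Endothelial markers summed to 11.2 to 16.3 and 18.0 to 55.3 CPM, with Cldn5 at 0 in all libraries, and neuronal markers to 6.06 to 7.08 and 14.1 to 16.4 CPM. Of the markers that passed the filter on low counts, 2 of 5 for astrocytes, 4 of 5 for the oligodendrocyte lineage, 0 of 5 for fibroblasts, 1 of 1 for endothelium and 1 of 1 for neurons rose and 0 fell, compared with 8.42% and 5.46% of all genes tested. These lists held 6, 7, 5, 3 and 4 genes. The part of these other cells in the results below was not tested, and in such bulk samples fewer cells of a type and less RNA per cell cannot be told apart.

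Among the classical inhibitors, Nfkbia (chr12:55489410-55492647) encodes IκBα, the inhibitor that is degraded and resynthesised most rapidly. Its level was 97.7, 73.4 and 70.8 CPM in GSK-J4 replicates 1, 2 and 3 and 681, 680 and 771 CPM in the LPS + GSK-J4 replicates. The lowest LPS library was thus 6.96-fold above the highest library without LPS. The log2 fold change was 3.13 ± 0.14 (SE, n = 3 per group, edgeR adjusted p = 1.09e-10), the 52nd highest of the genes tested.

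Nfkbie (chr17:45555703-45563169) encodes IκBε, a slower inhibitor that prefers dimers with RelA and c-Rel. It was at 8.49, 5.84 and 4.77 CPM without LPS and at 34.3, 49.2 and 46.7 CPM with LPS. In GSK-J4 it had the lowest counts of the family, down to 13 in a library, and the counting error alone came to 20.0% of its GSK-J4 mean, compared with an observed coefficient of variation of 30.1%. The groups were nevertheless apart, with a log2 fold change of 2.73 ± 0.23 (SE, n = 3 per group, edgeR adjusted p = 3.68e-07).

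Nfkbib (chr7:28758251-28767512) encodes IκBβ, which is degraded more slowly than IκBα. Its level was even in GSK-J4, at 39.6, 43.1 and 41.8 CPM, and spread more widely with LPS, at 91.7, 108 and 160 CPM. The log2 fold change was 1.53 ± 0.18 (SE, n = 3 per group, edgeR adjusted p = 1.23e-05), just inside the threshold of 1.5. Without LPS + GSK-J4 replicate 3, the highest library, it was 1.27 and the call was lost, and without GSK-J4 replicate 1 it was 1.49. The rise itself kept an adjusted p of at most 1.75e-04 under every setting tried. Mean raw counts were 158 without LPS and 302 with LPS, so the size of the scaled rise depends on the TMM factors. Nfkbib overlaps Ccer2 and Sirt2 on the other strand, and the counts used keep the strands apart.

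Among the atypical members, Nfkbiz (chr16:55811375-55838899) encodes IκBζ, a nuclear coactivator needed for secondary inflammatory genes such as Il6. It showed the largest change of the family, from 44.4, 37.5 and 30.1 CPM to 1289, 1192 and 1175 CPM. The lowest LPS library was 26.5-fold above the highest library without LPS, and the LPS libraries differed little among themselves, with a coefficient of variation of 5.05%. The log2 fold change was 5.02 ± 0.15 (SE, n = 3 per group, edgeR adjusted p = 7.38e-13), the 18th highest of the 10133 genes tested.

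Nfkbid (chr7:30421732-30428746) encodes IκBNS, a nuclear regulator of a subset of cytokine genes. It was at 11.8, 11.9 and 11.7 CPM without LPS and at 67.5, 57.6 and 69.0 CPM with LPS. The close agreement of the GSK-J4 libraries, with a coefficient of variation of 0.699%, was below the 14.9% that counting alone gives at this depth. The groups were well apart, with a log2 fold change of 2.45 ± 0.17 (SE, n = 3 per group, edgeR adjusted p = 2.39e-08).

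Bcl3 (chr7:19808462-19822770) encodes a nuclear partner of p50 and p52 homodimers. It was at 11.6, 9.43 and 12.5 CPM without LPS and at 19.5, 10.3 and 19.4 CPM with LPS. LPS + GSK-J4 replicate 2 lay inside the range of the GSK-J4 libraries and the other two lay above it. The log2 fold change was 0.57 ± 0.26 (SE, n = 3 per group, edgeR adjusted p = 0.134), with a 95% interval from 0.01 to 1.12. A change was not shown at a mean of 41.3 counts per LPS library, and the interval leaves out one as large as the threshold. The raw counts were 49, 42 and 34 without LPS and 50, 27 and 47 with LPS. Bcl3 shares 55 exonic bases with an antisense gene.

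Among the subunits, Rela (chr19:5637483-5648130) encodes p65, which carries the main transactivation domain of the common p50/p65 dimer. It was at 65.6, 65.5 and 81.4 CPM without LPS and at 76.1, 91.6 and 126 CPM with LPS. The groups overlapped, since LPS + GSK-J4 replicate 1 lay below GSK-J4 replicate 3. The log2 fold change was 0.47 ± 0.17 (SE, n = 3 per group, edgeR adjusted p = 0.0560), with a 95% interval from 0.11 to 0.84. The raw counts of 278, 292 and 222 without LPS and 195, 240 and 306 with LPS do not show this difference before scaling.

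Rel (chr11:23736847-23770970) encodes c-Rel, a subunit abundant in blood cells. It was at 11.3, 12.8 and 11.7 CPM without LPS and at 30.1, 25.9 and 27.3 CPM with LPS, and the lowest LPS library was 2.03-fold above the highest library without LPS. It rose by a log2 fold change of 1.21 ± 0.19 (SE, n = 3 per group, edgeR adjusted p = 1.99e-04), below the fold threshold.

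Nfkb1 (chr3:135584655-135691547) encodes p105, which is processed to p50 and acts as an IκB when it is not. It was at 50.0, 46.5 and 54.3 CPM without LPS and at 128, 134 and 176 CPM with LPS. The log2 fold change of 1.54 ± 0.15 (SE, n = 3 per group, edgeR adjusted p = 1.20e-06) was the only one of the subunits past the fold threshold. The margin was small, since it was 1.39 without LPS + GSK-J4 replicate 3 and 1.48 without GSK-J4 replicate 2, with the call lost in both. The rise kept an adjusted p of at most 2.86e-05 under every setting tried. Mean raw counts were 189 without LPS and 368 with LPS, so here too the size of the scaled rise depends on the TMM factors.

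Nfkb2 (chr19:46304320-46312385) encodes p100, the precursor of p52 and an inhibitor of RelB. It was at 94.1, 76.3 and 81.8 CPM without LPS and at 167, 163 and 215 CPM with LPS. The groups did not overlap, and the log2 fold change was 1.11 ± 0.14 (SE, n = 3 per group, edgeR adjusted p = 2.61e-05), below the fold threshold. Nfkb2 shares exonic bases with Psd and with a long non-coding RNA on the other strand. Rel is thus the gene just outside the threshold of 1.5, and Nfkbib and Nfkb1 are those just inside.

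**Figure D2:**
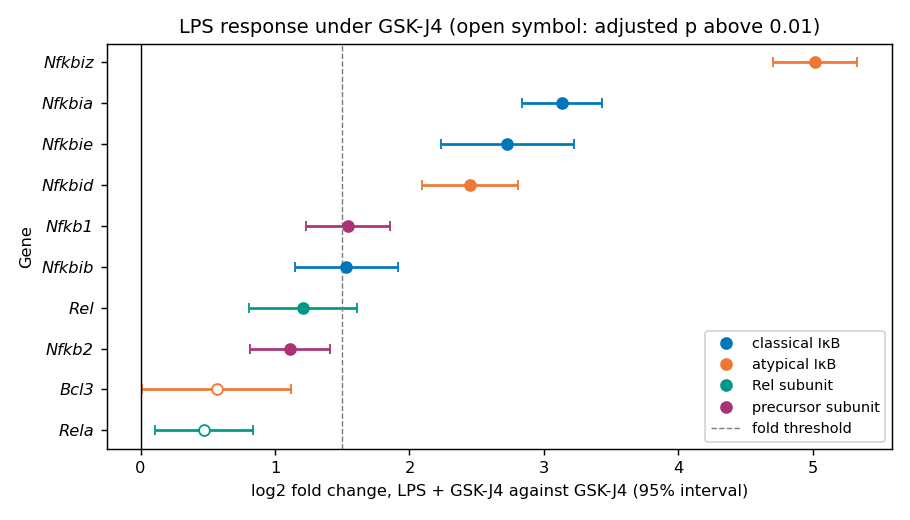
log2 fold change of LPS + GSK-J4 against GSK-J4 with its 95% interval for each gene, coloured by role, with a dashed line at the fold threshold of 1.5. The intervals of Nfkbiz, Nfkbia, Nfkbie and Nfkbid lie wholly to the right of the dashed line, and those of Nfkb1, Nfkbib and Rel cross it.

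**Figure D3:**
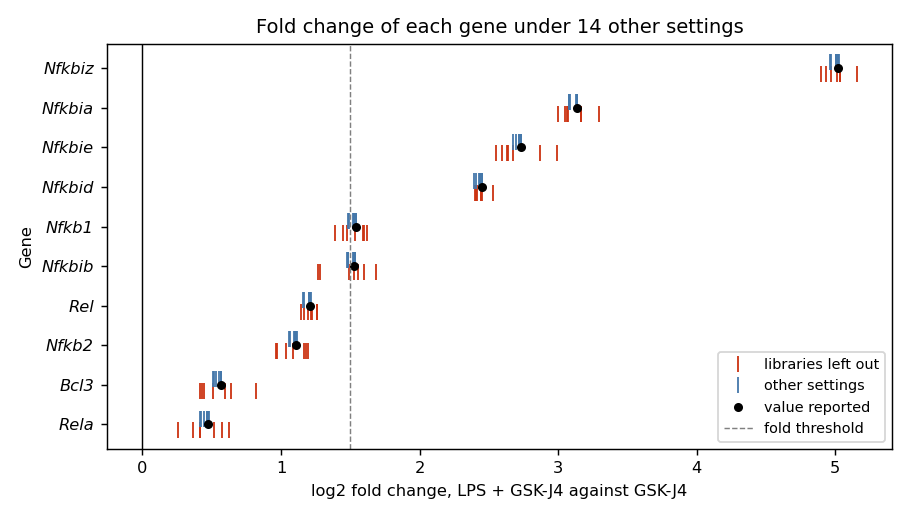
log2 fold change of each gene as reported (black) and under 14 other settings, with libraries left out in red and other counts, tools, filters or models in blue. Every value lies above 0, and only the values of Nfkbib and Nfkb1 fall on both sides of the threshold of 1.5.

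To compare the genes with each other, levels were divided by the length of their annotated exons (RPKM). In GSK-J4 the order was Nfkbia, Rela, Nfkb2, Nfkbib, Nfkb1, Nfkbiz, Bcl3, Nfkbid, Nfkbie and Rel, from 51.1 ± 9.40 to 1.60 ± 0.10 RPKM (SD, n = 3). The ranges of neighbours overlapped for Nfkb2 and Nfkbib and for Bcl3 and Nfkbid, and the other neighbours were apart in these libraries. In LPS + GSK-J4 the order was Nfkbia, Nfkbiz, Nfkbib, Nfkb2, Rela, Nfkb1, Nfkbid, Nfkbie, Bcl3 and Rel, from 450.3 ± 32.9 to 3.72 ± 0.28 RPKM (SD, n = 3). Here the neighbours Nfkbib, Nfkb2, Rela and Nfkb1 overlapped, at means between 35.4 and 56.5 RPKM, and the other neighbours were apart. Nfkbiz moved from the sixth place at 9.01 ± 1.73 RPKM to the second at 295 ± 14.9 RPKM, and Rela moved from the second place to the fifth.

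The IκB genes, which include the coactivator gene Nfkbiz, made up more of the family transcripts with LPS. Summed IκB transcripts were at 106, 88.7 and 85.7 RPKM in GSK-J4 and at 841, 822 and 908 RPKM in LPS + GSK-J4. Summed subunit transcripts were at 60.1, 55.2 and 64.1 RPKM and at 103, 108 and 144 RPKM. The ratio of the former to the latter was 1.57 ± 0.22 (SD, n = 3) without LPS and 7.37 ± 0.95 (SD, n = 3) with LPS, and the groups did not overlap. Nfkbia and Nfkbiz together made up most of this sum with LPS, at 46.2% and 30.2% of the family transcripts, compared with 33.3% and 5.88% without LPS.

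**Figure D4:**
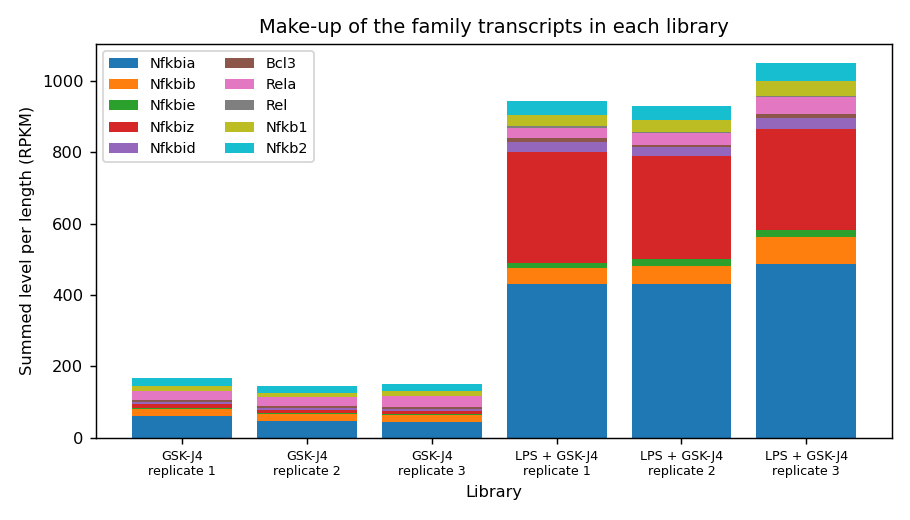
Stacked levels per length of the 10 genes in each library, in RPKM. The sum is largest with LPS, where Nfkbia (blue) and Nfkbiz (red) fill most of each bar, at 46.2% and 30.2% of the mean.

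Transcripts of the classical IκB genes alone summed to 73.2 ± 9.46 RPKM (SD, n = 3) without LPS and 525 ± 50.9 RPKM (SD, n = 3) with LPS. Within the IκB genes, the ratio of atypical to classical transcripts was 0.279 ± 0.013 (SD, n = 3) without LPS and 0.639 ± 0.081 (SD, n = 3) with LPS. The ratio of Nfkbia to Rela, the inhibitor and the subunit of the best known pair, was 2.00 ± 0.54 (SD, n = 3) without LPS and 12.9 ± 2.46 (SD, n = 3) with LPS. Within the subunits, the ratio of Nfkb1 to Rela was 0.469 ± 0.032 (SD, n = 3) without LPS and 0.995 ± 0.103 (SD, n = 3) with LPS. These ratios carry no test, and they compare transcripts, not proteins.

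The genes upstream of the family and around it were described with a list of 27 genes, of which 26 were tested. Of these, 2 rose, 1 fell and 0 passed the fold threshold, and the median log2 fold change was -0.06. The share that rose or fell was thus near that of all genes tested, at 8.42% and 5.46%. Among the 11 genes of the IKK complex and its kinases, Map3k8, which encodes the kinase TPL2 that p105 holds inactive, rose by a log2 fold change of 1.17 ± 0.19 (SE, n = 3 per group, edgeR adjusted p = 2.68e-04). Its level was 14.6, 16.4 and 20.5 CPM without LPS and 35.5, 35.9 and 42.9 CPM with LPS. In the same group Tab1, which encodes a partner of the kinase TAK1, fell by 0.83 ± 0.20 on the log2 scale (SE, n = 3 per group, edgeR adjusted p = 0.00649). This fall did not pass the test with DESeq2 or without any 1 of the GSK-J4 libraries or of LPS + GSK-J4 replicates 1 and 2.

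The 5 genes of the ubiquitin ligase that tags phosphorylated IκB gave 0 genes that rose or fell, with log2 fold changes between -0.22 and 0.71. Relb, which encodes the fifth Rel protein and the main partner of p52, was listed with the binding partners of the family. It rose from 71.3, 54.5 and 64.9 CPM to 89.4, 96.5 and 122 CPM, a log2 fold change of 0.69 ± 0.15 (SE, n = 3 per group, edgeR adjusted p = 0.00322). Without GSK-J4 replicate 2 it was 0.58 (edgeR adjusted p = 0.0299), and without LPS + GSK-J4 replicate 2 it was 0.74 (edgeR adjusted p = 0.0132). A rise of this size depends on the TMM factors given above. Textbook targets of NF-κB outside the family were described with 20 genes, of which 19 were tested. Of these, 18 rose and 16 were called up-regulated, compared with 8.42% and 2.95% of all genes tested. Their median log2 fold change was 3.60, and Bcl2l1 alone had a negative value, -0.54, without passing the test. Where every library had to hold at least 10 counts, 14 targets rose, compared with 721 of 8594 genes. That filter took out targets with fewer counts in GSK-J4 replicate 3, such as Cxcl1 and Ccl2, before the test. Under the other settings 17 or 18 targets rose. The largest changes of the targets were those of Tnf at 6.95, Ccl4 at 5.82, Cxcl1 at 5.78 and Ccl2 at 5.04, of which Ccl2 was close to Nfkbiz. The GSK-J4 means of these genes were 34.4, 24.2, 3.62 and 3.39 CPM. In GSK-J4 replicate 3, Cxcl1 was at 1.83 CPM and Ccl2 at 2.57 CPM, so their fold changes rest on few counts without LPS.

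**Figure D5:**
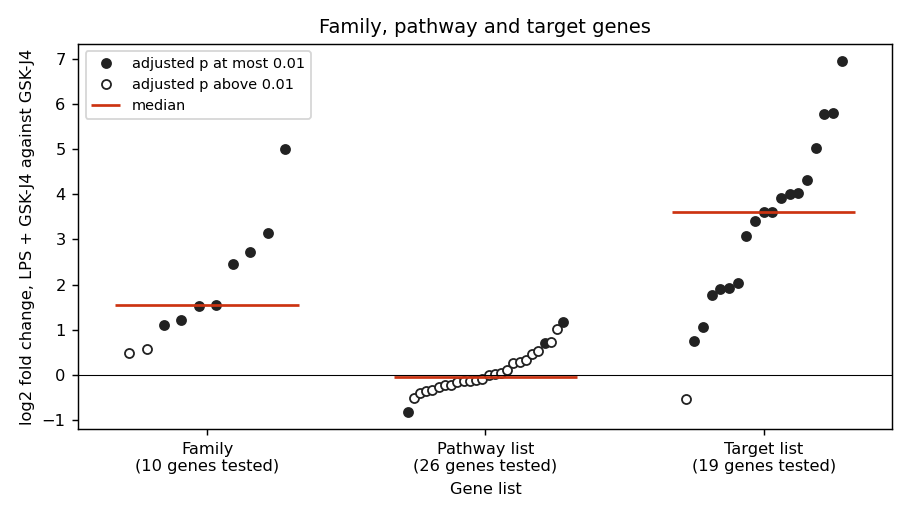
log2 fold change of each tested gene in the family (10 genes), the pathway list (26 genes) and the target list (19 genes), sorted within a list, with the median in red. Filled points had an adjusted p of at most 0.01. The pathway genes gather around a median of -0.06, the family around 1.54 and the targets around 3.60.

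The genes whose pattern was most like that of 3 members were found by the distance of their centred log2 CPM over the 6 libraries. For Nfkbia these were Irf1, Rab11fip1 and Plagl1, at distances of 0.297, 0.298 and 0.301, compared with a median of 3.92 over all genes tested. For Nfkbiz they were Ifih1, Ccl2 and Cmpk2, at 0.264, 0.506 and 0.691, compared with a median of 6.20. For Rela they were Dvl1, Git1 and Taf10, at 0.137, 0.140 and 0.153, compared with a median of 1.06, and 0 of these 3 genes passed the test. The libraries share their scaling and the treatment, and the likeness describes these 6 libraries only.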

How the data were processed

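RNA-seq libraries of PM, 3 treated with GSK-J4 and 3 with LPS and GSK-J4, were analysed. Ribosomal RNA was depleted and directional paired-end libraries were made. Per the labels, the submitters' processing notes name CASAVA 1.8.2, Trimmomatic 0.33, STAR 2.5.1, DESeq2 and mm10. The authors deposited raw counts per gene, without normalization, with a column each for unstranded counts, the sense strand and the reverse strand, of which the last was used. STAR counts only fragments that map to 1 place and overlap 1 gene. The tally lines of fragments without a gene, 59.3 to 62.6% of unique fragments outside exons on that strand, were left out.

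Groups and replicate numbers came from the titles. Counts were scaled by TMM, filtered with filterByExpr (minimum count 10, minimum total 15) and tested over 10133 genes by the robust quasi-likelihood test of edgeR 4.0.16 (R 4.3.3) without covariates. Benjamini-Hochberg adjustment covered all of these genes. A gene passed at an adjusted p ≤ 0.01 and was called if its log2 fold change was also at least 1.5 in size. "Rose" and "fell" refer to genes that passed. CPM are after TMM, and RPKM use exons of the GENCODE vM21 basic annotation, since the annotation used for counting is not given in the sources used here. Genes named outside the family are up to 4 per direction and list with the largest fold change among those that passed, Bcl2l1 and the markers excepted, and the 3 nearest genes to Nfkbia, Nfkbiz and Rela. Bcl2l1 was named after its value was seen. The alternatives were unstranded counts, DESeq2 size factors, DESeq2 1.42.0, other filters, a looser threshold and a replicate block. Removal of Rn45s, Mir6236 and Lars2 and leaving out libraries were also among them. The genes and lists were chosen with earlier results of these data known. Python 3.11.15, pandas 2.3.3 and matplotlib 3.10.9 served for tables and plots.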

Additional observations from a re-analysis of the deposited data

How the results depend on the processing

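All 10 genes kept a positive log2 fold change under all 14 settings. Each setting scaled the counts by TMM or DESeq2 size factors, so the dependence on such scaling was not tested. The mean raw counts went from 41.7 to 41.3 for Bcl3 and from 264 to 247 for Rela. The number called was 6 and lay between 4 and 8. It was 4 under the DESeq2 Wald test and without a filter on low counts, where 254 and 378 of 18016 genes were called up-regulated. With the replicate block it was 5, compared with 306 of 10133 genes. At an adjusted p of 0.05 and a log2 fold change of 1 it was 8. The share over all genes was not counted at that threshold. The number called was 4 to 6 without 1 library, compared with 271 to 374 of 10323 to 10513 genes. Without replicate 3 of both groups, a setting added after seeing the data, it was 4, compared with 297 of 10375 genes. Nfkbib was at 1.48 with DESeq2, without a filter and with the block, and Nfkb1 at 1.49 with DESeq2 and without a filter, so both were not called there. DESeq2 and the missing filter moved the median of all genes to 0.127 and 0.120. With the replicate block Rela passed the adjusted p (0.45, edgeR adjusted p = 0.00142). There 3 pathway genes rose and 3 fell, compared with 1259 and 1016 of all 10133 genes. Same-numbered libraries correlated in their deviations at -0.01, 0.12 and 0.30, so the main test did not take the numbers as pairs. Replicate 3 stood apart in both groups, and an effect shared by same-numbered libraries was not tested. Of all genes tested, 553 fell, compared with 1016 with the block, 858 without a filter and 312 to 679 without 1 library, and 299 were called up-regulated, compared with 176 where every library had at least 10 counts. With DESeq2, 0 pathway genes fell, compared with 568 of 18016 genes. Without 1 library, 1 to 2 pathway genes rose and 0 to 1 fell, compared with 595 to 925 and 312 to 679 of all genes. The cause of these moves was not tested.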
